A study of Oryza sativa with 2 samples.

Results

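The genes described here encode the NB-ARC and NBS-LRR proteins, the intracellular immune receptors of plants, as they were expressed in rice seedling leaves. They were chosen from the deposited expression table by description. A row was taken if its text contained NB-ARC, NBS-LRR or disease resistance protein, and if its mean over both libraries was at least 1 FPKM, that is, 1 fragment for each kilobase of a transcript and each 1000000 mapped fragments. Of the 76131 rows in the table, 320 matched the description, and 133 of these reached the level. Rows at or above that mean are called measured below. The rule therefore used the same FPKM values that are compared between the libraries, and all differences below are descriptions.

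The libraries were made from leaves of 2-week-old seedlings of the cultivar Ilmi of Oryza sativa. PGD1:Roc10 is the label of the transgenic library, whose plants carry Roc10 behind a promoter described as whole-body. Roc10 is a homeodomain-leucine zipper transcription factor. The other library came from nontransgenic plants of the same cultivar (NT). Both were germinated on Murashige and Skoog medium at 28 °C for 4 days, then grown in soil in a greenhouse with 3 plants per pot under normal conditions. The labels do not give the number of plants behind a library or the number of transgenic lines. Each group has 1 library, so no value below has a replicate and the spread between plants is unknown. No row analysed here is named Roc10, and the transgene was not used to check the labels.

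The receptors share a nucleotide-binding domain, called NB-ARC after proteins that carry it, which acts as a switch, and most carry leucine-rich repeats behind it. They sit inside the cell, where they sense proteins that pathogens deliver or the damage those proteins do, and their activation starts a strong local defence that often ends in death of the infected cell. In rice, several genes for resistance to blast fungus and to bacterial blight belong to this family. Such genes are known to lie in clusters of related copies, many of them with low transcript levels in healthy leaves.

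Depth was 21866514 mapped read pairs in PGD1:Roc10 and 27683296 in NT, with alignment rates of 96.0% in PGD1:Roc10 and 96.7% in NT. Read counts per gene are not recoverable from FPKM, so how many reads stand behind a value is unknown. The tissue label was checked against marker lists. The 54 rows of the leaf list, photosystem, antenna and Rubisco small subunit genes, added up to 71431 FPKM in PGD1:Roc10 against 75181 FPKM in NT. The 7 root rows gave 13.5 FPKM in PGD1:Roc10 against 17.7 FPKM in NT, nearly all from NAS3, while the root-specific RCc3 rows were at or near 0. The 52 seed rows gave 84.3 FPKM in PGD1:Roc10 and 73.7 in NT, and the 17 pollen and profilin rows gave 178 FPKM in PGD1:Roc10 against 144 FPKM in NT, mostly from a profilin-2-like gene. Fewer cells of a type and less RNA per cell cannot be told apart in such bulk leaf RNA.

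Receptor transcripts were mostly low in both libraries. The 133 measured receptors ran from 0.905 to 60.2 FPKM in PGD1:Roc10, with a median of 4.06 FPKM, and from 0.0852 to 57.8 FPKM in NT, with a median of 3.29 FPKM. Only 23 had a mean of 10 FPKM or more. Summed over all 133, they gave 943 FPKM in PGD1:Roc10 against 773 FPKM in NT. The 10 most abundant receptors carried 35.0% of that sum in PGD1:Roc10 and 36.8% in NT.

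Among the 187 matching rows below the level, 60 were listed at 0 in both libraries, 11 in PGD1:Roc10 only and 12 in NT only. Matching rows reached the level less often than the table at large: 41.6% of the 320 did, and 57.6% of all rows outside the short RNAs. The highest single values left out were 1.30 FPKM in PGD1:Roc10 and 1.31 in NT. Just outside the level lay OS11G0160900, with 0.663 FPKM in PGD1:Roc10 against 1.31 FPKM in NT, and OS11G0684100, with 1.0002 FPKM in PGD1:Roc10 against 0.956 FPKM in NT. Just inside it lay OS06G0146100, with 0.939 FPKM in PGD1:Roc10 and 1.09 in NT, and OS11G0223201, with 1.22 FPKM in PGD1:Roc10 against 1.03 FPKM in NT.

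For each gene the NT value of log2(FPKM + 1) was subtracted from the PGD1:Roc10 value. This difference understates changes at low levels. A gene is called 2-fold higher or lower when this difference reaches 1 in size. Ratios printed beside FPKM values are plain ratios. On the difference scale, 14 of the 133 receptors were 2-fold higher in PGD1:Roc10 (10.5%), and over all 21679 measured rows 2.08% were. None of the 133 was 2-fold lower, where 1.02% of all measured rows were. Among measured rows of a low level like theirs, with a mean of 1 to 10 FPKM, 3.08% were 2-fold higher and 1.64% lower. At 1.5-fold, 19 receptors were higher and 0 lower, against 4.9% and 3.65% of all measured rows.

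Higher values were not limited to the 14. The value was higher in PGD1:Roc10 for 87 receptors and lower for 46, so 65.4% were higher, against 48.8% of all measured rows and 51% of those with a mean of 1 to 10 FPKM. The median difference was 0.20 on the log2 scale for the receptors and -0.01 over all measured rows. The differences ran from -0.41 to 2.22, and 66 receptors lay within 0.25 of 0. Beyond 0.5 on the log2 scale lay 26 receptors, all higher. Between 0.25 and 0.5 there were 32 higher and 9 lower. Of measured rows with a mean of 1 to 10 FPKM, 9.58% lay beyond 0.5 on the higher side and 7.32% on the lower. With an equal FPKM sum over every row, short RNAs included, the median difference was -0.19 over all measured rows and 0.02 over the receptors. The receptors then had 54.9% higher values, against 21.1% of all measured rows. Of the receptors 10 were 2-fold higher and 0 lower, beside 1.65% and 1.48% of all measured rows. With an equal sum over rows outside the short RNAs, the medians were 0.02 over all measured rows and 0.23 over the receptors. Higher values then made up 69.9% of receptors and 54.5% of all measured rows. Here 15 receptors were 2-fold higher and 0 lower, beside 2.2% and 0.973% of all measured rows.

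**Figure D1:**
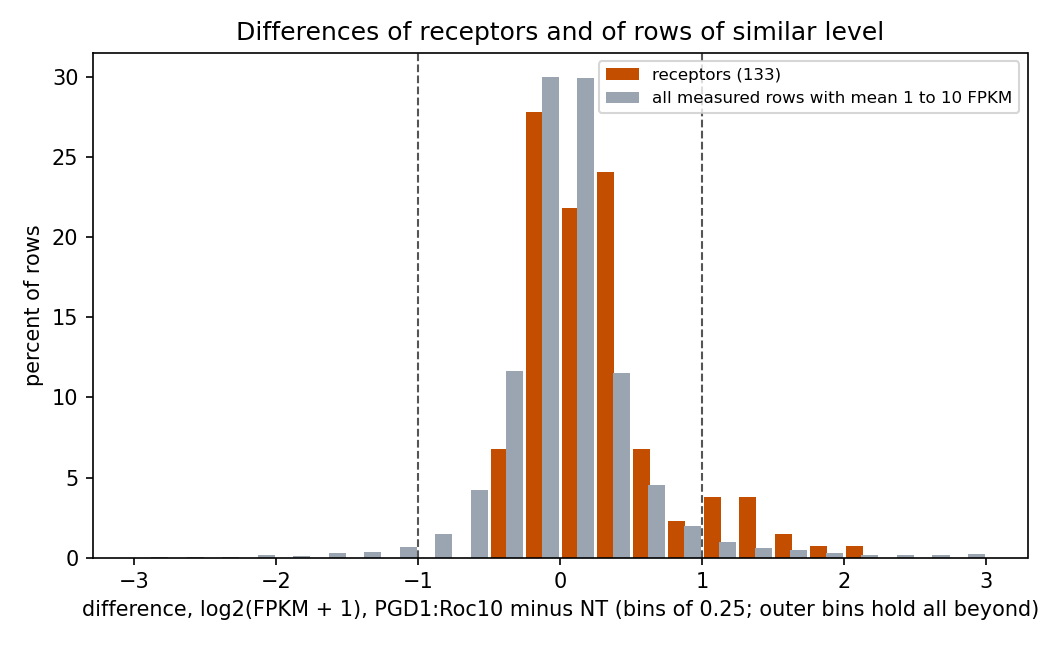
Percent of rows (vertical axis) in bins of 0.25 of the difference, log2(FPKM + 1) in PGD1:Roc10 minus NT (horizontal axis), for the 133 receptors (orange) and for all measured rows with a mean of 1 to 10 FPKM (grey). The dashed lines mark 2-fold. The receptors have 14 rows beyond the line on the higher side and 0 beyond it on the lower side, while the grey bars run past both lines.

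The level rule can let in a gene only through the library in which it is high, so the counts were repeated where it could not. Of the 133, 8 lay below 1 FPKM in NT alone and 2 below 1 FPKM in PGD1:Roc10 alone. With at least 1 FPKM in both libraries, 123 receptors were left, of which 9 were 2-fold higher and 0 lower, and 79 had the higher value in PGD1:Roc10. Of all measured rows with at least 1 FPKM in both, 1.24% were 2-fold higher, 0.587% were 2-fold lower and 48.5% had the higher value in PGD1:Roc10. Without a level rule, 1.4% of all rows were 2-fold higher and 0.68% were 2-fold lower. Over all 320 matching rows, whatever their level, 15 were 2-fold higher and 0 lower, and the median difference was 0.00. The extra row, OS11G0474500, had 1.22 FPKM in PGD1:Roc10 against 0.110 FPKM in NT.

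Higher values outnumbered lower ones at each level of expression. Of 30 receptors with a mean of 1 to 2 FPKM, 20 were higher, 2 of them 2-fold, where 51.0% of all measured rows at that level were higher and 3.37% were 2-fold higher. Between 2 and 5 FPKM, 37 of 54 receptors were higher, 6 of them 2-fold, beside 51.7% and 3.89% of all rows. Between 5 and 10 FPKM, 16 of 26 were higher, 3 of them 2-fold, beside 50.3% and 2.00%. At 10 FPKM or more, 14 of 23 were higher, 3 of them 2-fold, beside 47.0% and 1.24%.

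**Figure D2:**
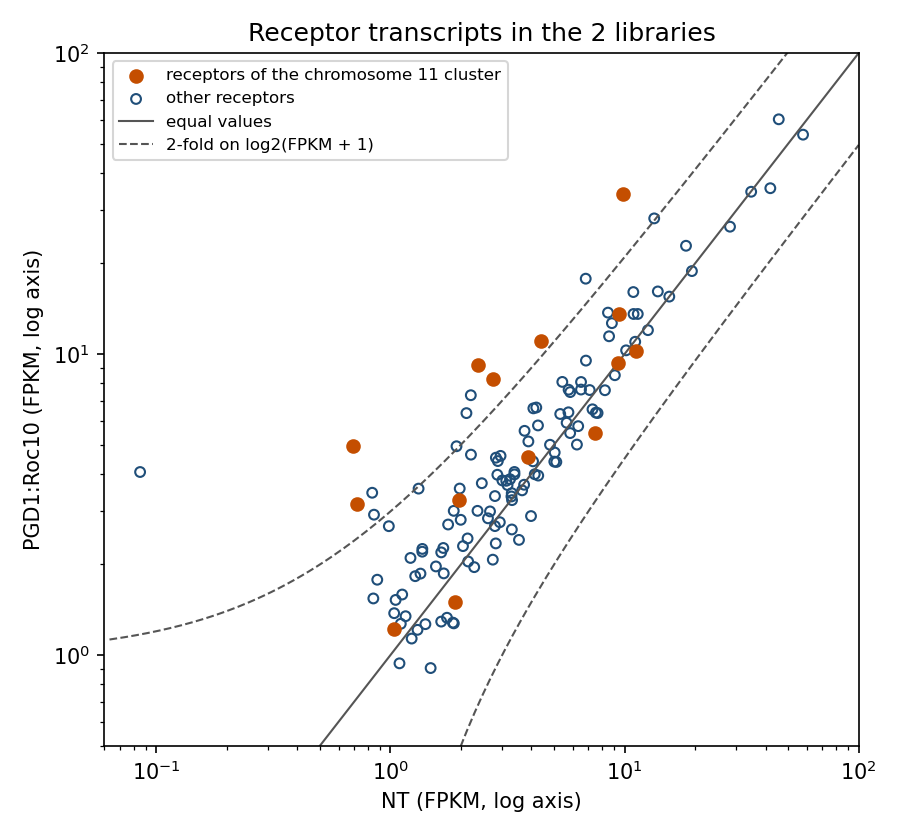
FPKM of each of the 133 receptors in PGD1:Roc10 (vertical axis, log scale) against NT (horizontal axis, log scale). The solid line marks equal values, the dashed curves mark 2-fold on the log2(FPKM + 1) scale, and filled points are the 14 measured receptors of the chromosome 11 cluster described below. Above the upper curve lie 14 receptors, 6 of them filled, and below the lower curve lies none.

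The authors' deposited table called 5 of the 133 receptors significant, all higher in PGD1:Roc10. Over all measured rows, the authors' deposited table called 0.48% higher and 0.0923% lower. Those Cuffdiff calls came from 1 library per group and carry no spread between plants. The 5 called in the authors' deposited table were OS11G0226933, OS11G0229300, OS11G0229400, OS11G0590700 and OS02G0281200, described below. A further matching row, OS04G0621500, was called lower in the authors' deposited table with q = 0.0111. It was listed at 0 in PGD1:Roc10 and had 0.661 FPKM in NT, below the level used here.

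Among the 10 most abundant receptors, OS11G0226933 and OS06G0267900 were 2-fold higher in PGD1:Roc10, and the others differed by less. The highest mean belonged to OS06G0287700 (chromosome 6, 10445136 to 10451095), described as a fragment of an NBS-LRR disease resistance protein, with 53.5 FPKM in PGD1:Roc10 and 57.8 in NT. OS12G0586000 (chromosome 12, 24456515 to 24459081) is similar to ADR1, which in Arabidopsis is a helper receptor that passes on signals from receptors that sense pathogens. It had 60.2 FPKM in PGD1:Roc10 against 45.5 FPKM in NT, a ratio of 1.32. These were the 2 receptors with the highest levels in both libraries, and their values differed in opposite directions.

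Next came 3 NB-ARC genes with the higher value in NT. OS11G0605100 had 35.5 FPKM in PGD1:Roc10 and 41.9 in NT. OS11G0588600 had 34.6 FPKM in PGD1:Roc10 against 34.7 FPKM in NT, and OS01G0359400 had 26.5 FPKM in PGD1:Roc10 against 28.2 FPKM in NT. All 3 lay within 0.25 of 0 on the difference scale.

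OS11G0226933 and OS06G0267900, sixth and seventh in abundance, were 2-fold higher and are described below. OS08G0170100, an NB-ARC gene, had 22.9 FPKM in PGD1:Roc10 against 18.3 FPKM in NT. OS04G0219600, similar to an NBS-LRR protein, had 18.9 FPKM in PGD1:Roc10 and 19.4 in NT. OS05G0414300 gave 15.5 FPKM in both.

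**Figure D3:**
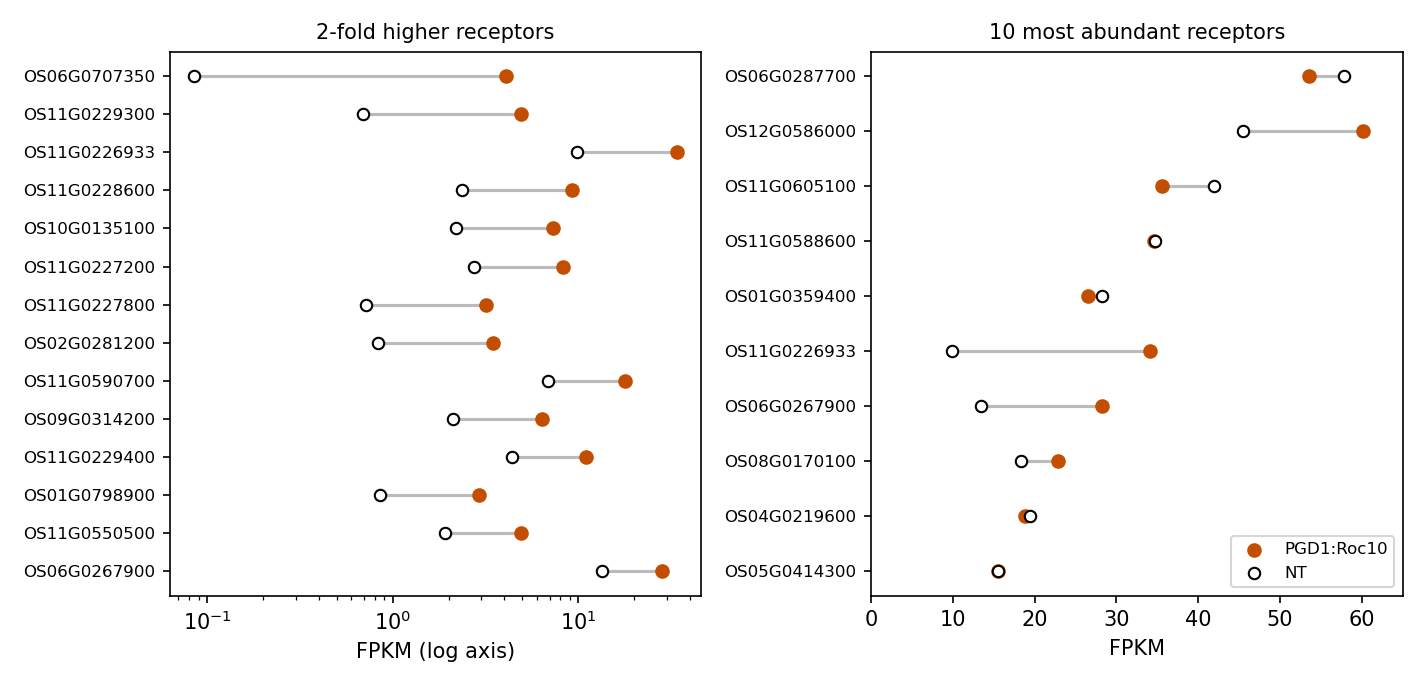
FPKM in PGD1:Roc10 (filled) and NT (open) of the 14 receptors that were 2-fold higher (left, log axis, ordered by difference) and of the 10 most abundant receptors (right, linear axis, ordered by mean). On the left every filled point lies to the right of its open point; on the right the widest gaps are those of OS11G0226933, OS06G0267900 and OS12G0586000.

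Of the 14 receptors that were 2-fold higher, 8 lay on chromosome 11, 2 on chromosome 6 and 1 each on chromosomes 1, 2, 9 and 10. By description 6 were NB-ARC genes, 6 were named as NBS-LRR proteins, 1 carried a disease resistance protein domain and 1 was a relative of a named gene. In NT, 5 of the 14 lay below 1 FPKM, and 9 at 1 FPKM or more.

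The difference of largest size belonged to OS06G0707350 (chromosome 6, 29897279 to 29899109), similar to an NBS-LRR disease resistance protein. It had 4.06 FPKM in PGD1:Roc10 against 0.0852 FPKM in NT, a ratio of 47.6 and a difference of 2.22. Its NT value was the lowest of all 133 receptors, and it was not called in the authors' deposited table, where q = 0.999. OS06G0707400, the next receptor 6.15 kb away, had 6.55 FPKM in PGD1:Roc10 against 7.29 FPKM in NT. The nearest measured row on the other side, OS06G0707250, a hypothetical gene 10.6 kb away, was listed at 0 in PGD1:Roc10 and had 3.74 FPKM in NT. OS06G0707700, which is annotated with the same best protein match as OS06G0707350, had 2.19 FPKM in PGD1:Roc10 against 1.65 FPKM in NT. Within this stretch, neighbouring rows thus differed in opposite directions.

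On chromosome 2, OS02G0281200 (10444567 to 10450918), similar to an NBS-LRR protein, had 3.46 FPKM in PGD1:Roc10 against 0.836 FPKM in NT. The ratio was 4.14, and the authors' deposited table called it with q = 0.0111. A leucine-rich repeat gene 3.80 kb away, OS02G0281150, had 6.21 FPKM in PGD1:Roc10 against 7.85 FPKM in NT, the opposite direction.

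On chromosome 6, OS06G0267900 (8913930 to 8917864), an NB-ARC gene with no other matching row within 200 kb, was the most abundant of the 2-fold higher receptors outside chromosome 11. It had 28.2 FPKM in PGD1:Roc10 against 13.4 FPKM in NT, a ratio of 2.11, with q = 0.0803 and no call in the authors' deposited table. Its difference of 1.02 lay just past the 2-fold line.

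On chromosome 1, OS01G0798900 (33815404 to 33816598), an ab initio gene model similar to the disease resistance protein RGA4, had 2.93 FPKM in PGD1:Roc10 and 0.850 in NT. Its neighbour OS01G0799100, an NB-ARC gene, had 6.64 FPKM in PGD1:Roc10 against 4.20 FPKM in NT. Both had the higher value in PGD1:Roc10, with differences of 1.09 and 0.56 on the log2 scale.

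Outside its main cluster, chromosome 11 held 2 further receptors that were 2-fold higher. OS11G0590700 (22427773 to 22435407), an NB-ARC gene, had 17.8 FPKM in PGD1:Roc10 and 6.82 in NT, a ratio of 2.61, and was called in the authors' deposited table with q = 0.0111. OS11G0550500 (20461109 to 20464673), described as similar to an LZ-NBS-LRR class resistance gene analogue, had 4.94 FPKM in PGD1:Roc10 against 1.91 FPKM in NT. It lay just past the 2-fold line, with a difference of 1.03 on the log2 scale.

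Just short of that line were OS10G0136100 with a difference of 0.98, OS04G0514600 with 0.89 and OS08G0296700 with 0.81. These 3, and OS04G0378575 with 1.78 FPKM in PGD1:Roc10 and 0.878 in NT, had a plain ratio above 2. By the plain ratio the counts were therefore 18 higher and 0 lower. The share of all measured rows past that plain ratio was not counted, so these 2 counts have no baseline. With a pseudocount of 0.1, 17 receptors were 2-fold higher and 0 lower, beside 3.2% and 1.95% of all measured rows.

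At the lower end the differences were small. OS11G0604900, an NB-ARC gene, had 2.41 FPKM in PGD1:Roc10 against 3.54 FPKM in NT, the lowest difference at -0.41. OS11G0220300 had 5.46 FPKM in PGD1:Roc10 and 7.49 in NT. OS02G0199200, with 0.905 FPKM in PGD1:Roc10 against 1.48 FPKM in NT, and OS05G0380300, with 2.90 FPKM in PGD1:Roc10 against 3.98 FPKM in NT, followed. None of these reached 1.5-fold on the log2(FPKM + 1) scale.

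By chromosome, the receptors were spread unevenly. The share of all measured rows with the higher value in PGD1:Roc10 lay between 45.9% on chromosome 12 and 50.9% on chromosome 1. Over all chromosomes 2.08% of measured rows were 2-fold higher, a share that was not counted for each chromosome. Chromosome 11 held 111 of the 320 matching rows and 42 of the 133 measured receptors, and chromosome 12 held 33 and 13. On chromosome 11, 26 of 42 were higher in PGD1:Roc10, 8 of them 2-fold, with a median difference of 0.16 on the log2 scale. On chromosome 12, 10 of 13 were higher and none was 2-fold higher, with a median of 0.21.

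On chromosome 1, 9 of 12 measured receptors were higher, on chromosome 2, 6 of 7, and on chromosome 5, 6 of 10. On chromosome 7, 4 of 7 were higher, on chromosome 8, 7 of 10, and on chromosome 10, 6 of 8. Chromosome 4, with 3 of 5 higher, had the highest median at 0.57. Chromosome 6, with 5 of 11 higher, had a median of -0.01 although 2 of its receptors were 2-fold higher.

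All 5 receptors of chromosome 9 were higher and all 3 of chromosome 3 were lower. The 3 on chromosome 3 were OS03G0254000 with 2.61 FPKM in PGD1:Roc10 and 3.30 in NT, OS03G0579900 with 1.28 FPKM in PGD1:Roc10 against 1.85 FPKM in NT, and OS03G0599000 with 1.27 FPKM in PGD1:Roc10 against 1.41 FPKM in NT. Over all measured rows the median difference of a chromosome lay between -0.02 on chromosome 12 and 0.00 on chromosome 1.

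**Figure D4:**
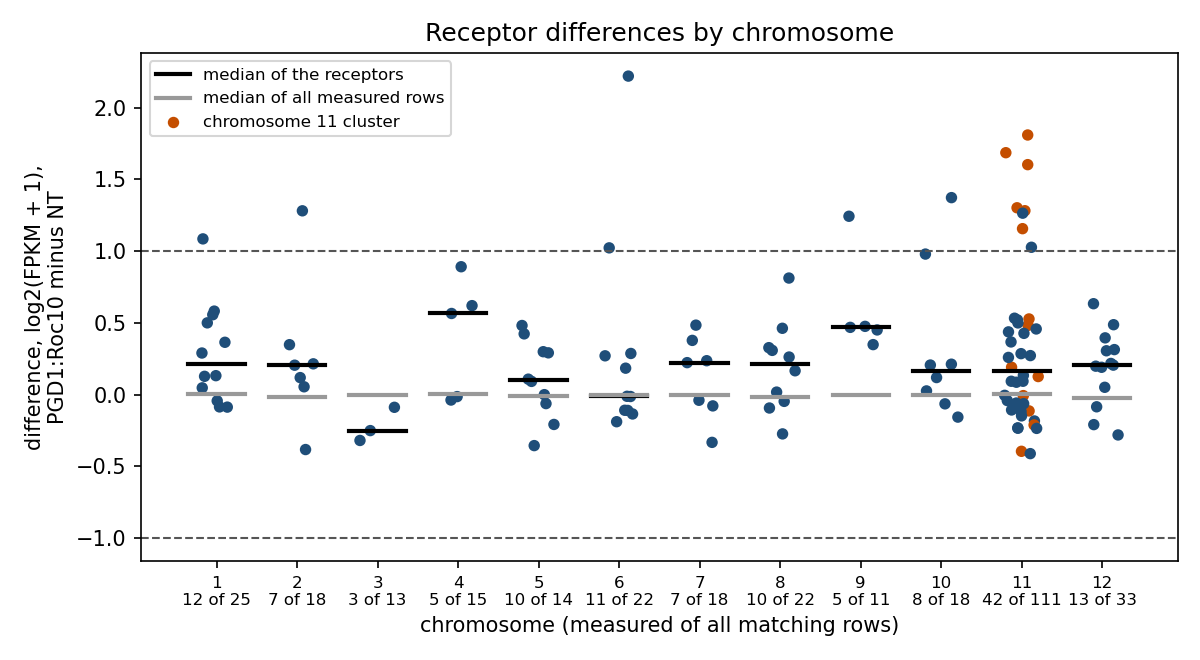
Difference, log2(FPKM + 1) in PGD1:Roc10 minus NT (vertical axis), of each measured receptor by chromosome (horizontal axis, with the measured number of all matching rows). Black bars are medians of the receptors and grey bars medians of all measured rows; orange points belong to the chromosome 11 cluster. Receptors beyond the upper dashed 2-fold line lie on chromosomes 1, 2, 6, 9, 10 and 11, and none lies beyond the lower line.

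Local clusters were formed from all 320 matching rows, whatever their level, by joining rows of 1 chromosome that lay within 200 kb of each other. This gave 33 clusters of at least 3 rows, with 167 rows and 72 measured receptors, and 3 of the clusters had no measured receptor. Receptors in these clusters were higher in 50 of 72 cases, 11 of them 2-fold, with a median difference of 0.22 on the log2 scale. Those in pairs were higher in 21 of 27, 2 of them 2-fold, with a median of 0.11. Those that lay alone were higher in 16 of 34, 1 of them 2-fold, with a median of -0.01. Of all measured rows, 48.8% were higher and 2.08% were 2-fold higher. The differences between these classes were not tested.

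Only 7 clusters held at least 3 measured receptors, and 5 of the 7 held a 2-fold higher member. The cluster with the most such members lay on chromosome 11 between 6285764 and 6898840, a stretch of 613 kb with 18 matching rows. Of its 14 measured receptors 10 were higher in PGD1:Roc10, 6 of them 2-fold, with a median difference of 0.50 on the log2 scale. Over all measured rows 48.8% were higher and 2.08% were 2-fold higher. The cluster was singled out by its number of 2-fold higher members, so that number is high by choice. Summed, they gave 119.9 FPKM in PGD1:Roc10 against 67.1 FPKM in NT.

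Along this stretch the receptors fell into 2 sides. The boundary between them was drawn after the values were seen. The 6 receptors at the low-coordinate side, from 6285764 to 6546026, had 2 higher values and 4 lower, with differences from -0.40 to 0.19. OS11G0220300 is given above. OS11G0222900 had 1.497 FPKM in PGD1:Roc10 and 1.89 in NT, and OS11G0223400 had 10.2 FPKM in PGD1:Roc10 against 11.2 FPKM in NT. OS11G0225100 had 9.35 FPKM in PGD1:Roc10 against 9.40 FPKM in NT. The 2 with the higher value in PGD1:Roc10 were OS11G0223201, given above, and OS11G0224900, with 4.56 FPKM in PGD1:Roc10 against 3.87 FPKM in NT. Their sum was 32.3 FPKM in PGD1:Roc10 and 34.9 in NT.

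On the high-coordinate side, from 6631718 to 6898840 or 267 kb, all 8 measured receptors had the higher value in PGD1:Roc10. Their differences ran from 0.48 to 1.81 on the log2 scale, and 6 were 2-fold higher. Their sum was 87.5 FPKM in PGD1:Roc10 against 32.2 FPKM in NT. The other 4 matching rows of this side lay below the level, and OS11G0228800 and OS11G0229500 among them were listed at 0 in both libraries.

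In order along the chromosome, OS11G0226800 came first, with 3.28 FPKM in PGD1:Roc10 and 1.97 in NT. OS11G0226933 (6638305 to 6640336), an NB-ARC gene, had 34.0 FPKM in PGD1:Roc10 against 9.89 FPKM in NT, a ratio of 3.44. It was the most abundant receptor of the cluster in PGD1:Roc10, and it was called in the authors' deposited table with q = 0.0111. OS11G0227100 had 13.6 FPKM in PGD1:Roc10 and 9.44 in NT, below 2-fold.

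OS11G0227200 (6668506 to 6681504), similar to an NBS-LRR disease resistance protein, had 8.25 FPKM in PGD1:Roc10 against 2.75 FPKM in NT, with q = 0.195 in the authors' deposited table. OS11G0227800 (6703145 to 6708873), an NB-ARC gene, had 3.18 FPKM in PGD1:Roc10 and 0.720 in NT, with q = 0.0507 in the authors' deposited table. OS11G0228600 (6827132 to 6840671), another NB-ARC gene, had 9.20 FPKM in PGD1:Roc10 against 2.36 FPKM in NT, at q = 0.115 in the authors' deposited table. These 3 thus had ratios of 3.00, 4.42 and 3.90 without a call in the authors' deposited table.

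At the far end, OS11G0229300 (6871950 to 6878271), similar to an NBS-LRR protein, had 4.94 FPKM in PGD1:Roc10 and 0.694 in NT. Its ratio of 7.12 was the second highest of the 133, at q = 0.0363 in the authors' deposited table. The adjacent OS11G0229400 (6878725 to 6884768), a fragment similar to an NBS-LRR protein, had 11.1 FPKM in PGD1:Roc10 against 4.41 FPKM in NT, at q = 0.0111 in the authors' deposited table. The authors' deposited table called both.

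The same stretch holds 17 measured rows that are not receptors. At the low-coordinate side, 5 of 13 of these rows were higher in PGD1:Roc10, none of them 2-fold. OS11G0226201, similar to a protein kinase and close to the boundary on this side, had 27.7 FPKM in PGD1:Roc10 against 16.7 FPKM in NT, a difference of 0.70. At the high-coordinate side all 4 were higher, 2 of them 2-fold. The other two had differences of 0.37 and 0.01, below that of OS11G0226201. OS11G0226966, a hypothetical gene, had 17.6 FPKM in PGD1:Roc10 and 5.54 in NT. OS11G0227250, which shares its locus with OS11G0227200, had 12.03 FPKM in PGD1:Roc10 against 4.73 FPKM in NT. OS11G0226900, which shares its locus with OS11G0226800, had 1.38 FPKM in PGD1:Roc10 and 0.843 in NT. OS11G0227000, between receptors that were higher, had 37.8 FPKM in PGD1:Roc10 and 37.5 in NT, so not every transcript of this side differed.

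**Figure D5:**
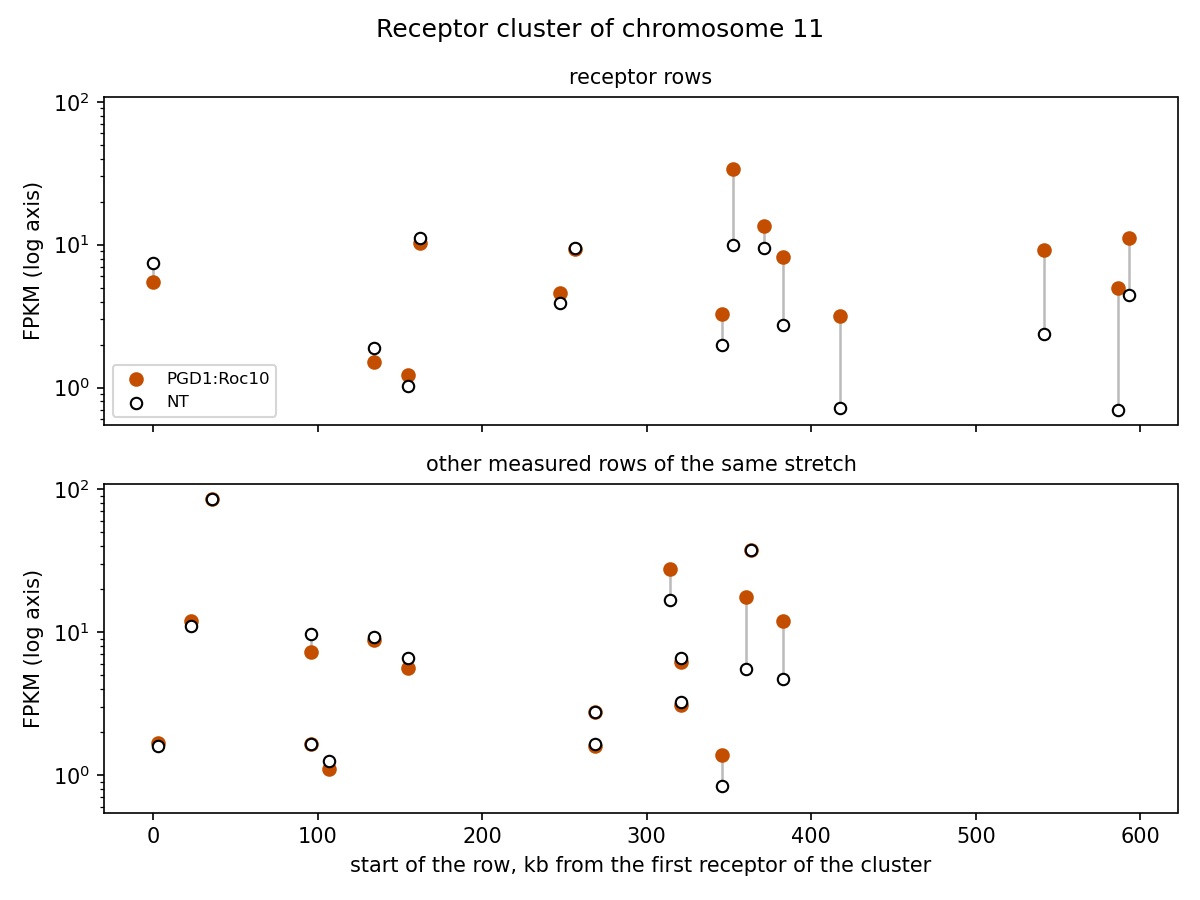
FPKM (log axis) in PGD1:Roc10 (filled) and NT (open) of the 14 measured receptors (upper panel) and the 17 other measured rows (lower panel) of the chromosome 11 cluster, by distance from the first receptor (kb). In the upper panel the 6 receptors on the left have small gaps of either direction, and all 8 on the right lie higher in PGD1:Roc10.

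The values of this cluster are less certain than those of single genes. OS11G0226800, OS11G0227200, OS11G0228600 and OS11G0229300 each share a locus with another row outside the short RNAs. On the low-coordinate side, OS11G0222900 and OS11G0223201 do too. The only other rows on the loci of OS11G0227800 and OS11G0229400 are short RNAs. OS11G0227100, OS11G0227800 and OS11G0229300 are annotated with the same best protein match, which OS04G0219600 on chromosome 4 also carries. OS11G0227200 and OS11G0229400 share another, as do OS11G0226800 with OS11G0228600 and OS11G0224900 with OS11G0226933. On the low-coordinate side, OS11G0223201 and OS11G0223400 share one as well. Near-identical copies can divide or exchange reads in the counting, and how far that happened here was not tested.

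The other 6 of the 7 clusters held 3 or 4 measured receptors each. The chromosome 10 cluster (1897741 to 2231401) had 4 measured receptors of 11 rows. OS10G0135100 (2169098 to 2170542) had 7.30 FPKM in PGD1:Roc10 against 2.204 FPKM in NT, a ratio of 3.31. OS10G0132700 had the lowest difference there, with 4.39 FPKM in PGD1:Roc10 against 5.01 FPKM in NT. It shares its locus and its best protein match with OS10G0133000, another measured receptor of this cluster, so their values are also less certain. OS10G0133000 had 1.97 FPKM in PGD1:Roc10 against 1.56 FPKM in NT. The cluster's median difference, 0.60 on the log2 scale, was the highest of the 7.

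In the chromosome 9 cluster (8348956 to 8572069) all 3 measured receptors were higher. OS09G0314200 (8568979 to 8572069), an ab initio model with a disease resistance protein domain, had 6.36 FPKM in PGD1:Roc10 against 2.11 FPKM in NT, and q = 0.0576 in the authors' deposited table. OS09G0313600 had the smallest difference, with 2.81 FPKM in PGD1:Roc10 against 2.00 FPKM in NT. The chromosome 6 cluster (29897279 to 29931821) held OS06G0707350 and OS06G0707400, given above, and had 2 of 3 higher.

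Chromosome 11 had 3 more such clusters. Between 22310965 and 22458547, OS11G0590700 was 2-fold higher while OS11G0588600 differed by -0.01 on the log2 scale. Between 23308316 and 23595357, 2 of 4 measured receptors were higher: OS11G0606400 had 16.1 FPKM in PGD1:Roc10 against 10.9 FPKM in NT, and OS11G0604900 was the lowest of all receptors in difference. Between 27223471 and 27991195, with 18 matching rows, only 4 were measured and 3 of these were higher. There OS11G0684700 had 2.71 FPKM in PGD1:Roc10 and 1.76 in NT, and OS11G0676800 had 1.33 FPKM in PGD1:Roc10 against 1.74 FPKM in NT.

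Direct neighbours did not always differ in the same direction. There were 26 adjacent pairs of measured receptors within 20 kb, and 16 of them had the same direction. The members of 3 pairs lay more than 1 apart on the log2 scale: OS06G0707350 with OS06G0707400, and OS11G0226933 with each of its neighbours OS11G0226800 and OS11G0227100. Of the 14 receptors that were 2-fold higher, 9 had at least 1 measured row of another kind on a separate locus within 20 kb, and there were 21 such rows in all. In PGD1:Roc10, 11 of the 21 had the higher value and 2 were 2-fold higher, OS11G0226966 near OS11G0226933 and OS01G0798800 beside OS01G0798900. OS01G0798800 had 3.77 FPKM in PGD1:Roc10 against 0.647 FPKM in NT. The hypothetical gene beside OS06G0707350 was the 1 row that was 2-fold lower.

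By description, the 90 genes named only by the NB-ARC domain had 57 higher values, 6 of them 2-fold, with a median difference of 0.16 on the log2 scale. The 24 named as NBS-LRR proteins had 16 higher, 6 of them 2-fold, with a median of 0.20. Of the 13 with a disease resistance protein domain, 9 were higher, 1 of them 2-fold. All measured rows, for comparison, were higher in 48.8% of cases and 2-fold higher in 2.08%. The 6 relatives of named genes had 5 higher.

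These 6 are ADR1-like OS12G0586000 and RGA4-like OS01G0798900, given above, and 4 more. OS04G0626500, similar to RGA2, known from a wild potato as a late blight resistance gene, had 10.98 FPKM in PGD1:Roc10 against 11.1 FPKM in NT. OS05G0305600, similar to Rp3, a rust resistance gene of maize, had 4.41 FPKM in PGD1:Roc10 and 2.87 in NT. OS01G0603500, similar to Cf2/Cf5, had 6.60 FPKM in PGD1:Roc10 against 4.08 FPKM in NT. The tomato Cf proteins are receptor-like proteins of the cell surface without an NB-ARC domain, so the description pattern took in at least 1 gene of another kind. OS01G0178900, described as symbiosis-related, had 1.86 FPKM in PGD1:Roc10 and 1.34 in NT.

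Other receptor classes were counted in the same way for comparison. Over all measured rows, 48.8% were higher, 2.08% were 2-fold higher and 1.02% were 2-fold lower. Of 96 measured leucine-rich repeat rows outside the receptors, 53 were higher in PGD1:Roc10 (55.2%) and 7 were 2-fold higher (7.29%). In this class 1 row was 2-fold lower, and the median difference was 0.02 on the log2 scale. Of 62 rows for wall-associated, lectin, S-locus and DUF26 proteins, which include cell surface receptor kinases, 31 were higher, 1 of them 2-fold, and 3 were 2-fold lower, with a median of 0.00. With 1 library per group, the difference between these classes and the NB-ARC and NBS-LRR receptors was not tested.

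Genes that act with the receptors were described from 8 lists. Of 95 measured rows in 7 of them, 55 had the higher value in PGD1:Roc10, 4 were 2-fold higher and 0 were 2-fold lower. Over all measured rows, 48.8% had the higher value, 2.08% were 2-fold higher and 1.02% were 2-fold lower. No row matched the list of EDS1 and PAD4, the lipase-like proteins that carry signals of one receptor class in Arabidopsis. The 4 rows that were 2-fold higher came from 3 lists.

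The chaperones SGT1, RAR1 and HSP90 fold and stabilise the receptors. Their list had 9 rows, all measured, of which 3 are activators of the HSP90 ATPase. Of the 6 rows for the chaperones themselves 3 were higher in PGD1:Roc10, and of the 3 activators 2 were. SGT1, the most abundant, had 144 FPKM in PGD1:Roc10 against 92.5 FPKM in NT, a ratio of 1.56. RAR1 had 16.0 FPKM in PGD1:Roc10 against 18.0 FPKM in NT, the opposite direction.

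RIN4 is a target of pathogen proteins that receptors guard in Arabidopsis, and the 8 rows of its family had 3 higher. The most abundant, OS09G0253000, had 218 FPKM in PGD1:Roc10 against 200.2 FPKM in NT. In the list of harpin-induced and NDR1-like genes, membrane proteins named for their part in defence, 19 of 30 measured rows were higher and 2 were 2-fold higher. OS03G0836300 had 25.3 FPKM in PGD1:Roc10 and 10.99 in NT, and OS12G0127200 had 4.16 FPKM in PGD1:Roc10 against 1.48 FPKM in NT. The most abundant, OS11G0157200, had 197 FPKM in PGD1:Roc10 against 148 FPKM in NT.

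Rac and Rop proteins are small GTPases that act between receptors and the oxidative burst. Their list had 12 measured rows, 6 for the GTPases, of which 4 were higher in PGD1:Roc10, and 6 for GTPase activating and exchange proteins, of which 1 was higher. RAC5 was the most abundant, with 43.0 FPKM in PGD1:Roc10 and 37.1 in NT. Respiratory burst oxidases make that burst, and 3 of 5 were higher. RBOHB, the most abundant by mean, had 28.5 FPKM in PGD1:Roc10 against 32.5 FPKM in NT. OS09G0438000, similar to oxidase E, was 2-fold higher, with 8.59 FPKM in PGD1:Roc10 and 3.01 in NT.

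Downstream, NPR1 is a co-activator of salicylic acid responses. Its 1 matching row, OS01G0194300, was 2-fold higher, with 11.7 FPKM in PGD1:Roc10 against 4.78 FPKM in NT. Of 30 measured rows of the mitogen-activated protein kinase list, which includes a MAP kinase phosphatase, 19 were higher and none differed 2-fold. MPK8, the most abundant, had 77.6 FPKM in PGD1:Roc10 and 82.3 in NT. MPK5, a rice defence kinase, had 16.3 FPKM in PGD1:Roc10 against 9.45 FPKM in NT. Its difference of 0.73 on the log2 scale was the largest of the 30, whose median was 0.05.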

How the data were processed

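Strand-specific libraries were made from total RNA of leaves, per the labels' protocols. Reads were trimmed, aligned with TopHat 2.0.12 to IRGSP-1.0 with Ensembl Plants release 23, and quantified with Cufflinks and Cuffdiff 2.2.1, per the file headers. The deposited values are FPKM as Cuffdiff gave them. Each q-value and call printed was copied from the authors' table, where Cuffdiff derived it and its p-value from a single library per group. The deposited summary gives 63341852 reads for PGD1:Roc10 and 82145342 for NT before trimming, and after it 45354852 for PGD1:Roc10 and 56985672 for NT. The strand setting of the counting is not given in the sources used here, so overlapping genes on opposite strands may not be separated. Of the 133 receptors, 42 share their locus with another row, short RNA rows counted, so some of them overlap no other gene row. Coordinates come from the authors' locus column, which gives whole loci and no exons. Its loci were 483 to 19008 bp long, with a median of 4181 bp, for the 133.

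Rows with short RNA identifiers were left out, except from the count of all rows, an FPKM scaling and the counts of rows that share a locus. No test was made, since each group has 1 library. The receptors, the lists and the comparisons were chosen with earlier results of these data known. The receptors named are those past 2-fold, the 10 most abundant, those called by the authors, and the highest and lowest difference of each cluster with 3 or more measured receptors, up to 30 in that order. From the pathway lists, rows past 2-fold and the most abundant row of each were named. Other genes were named after their values were seen. Alternatives were other pseudocounts than 1, other scalings, filters, fold thresholds, description patterns and cluster gaps. The calculations used matplotlib 3.10.9, SciPy 1.17.1, pandas 2.3.3 and NumPy 2.4.6 under Python 3.11.15, and were tested on simulated data. No sequences were used here.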

Additional observations from a re-analysis of the deposited data

Results flagged for a closer look

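The description pattern missed 25 rows that name a resistance gene in other words, and 8 of these were measured. Of the 8, 4 had the higher value in PGD1:Roc10, and the difference of 1 row reached 2-fold on log2(FPKM + 1). That row, OS04G0623066 (chromosome 4, 31660818 to 31662691), is similar to XA1, a rice gene for resistance to bacterial blight. It had 3.85 FPKM in PGD1:Roc10 and 1.19 in NT, a ratio of 3.23, and stood out as a difference in data outside the 133 receptors. A row similar to the blast resistance gene Pib, OS02G0818500, had 1.68 FPKM in PGD1:Roc10 and 2.28 in NT.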

How the results depend on the processing

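No receptor was 2-fold lower under any of the 18 alternatives for that count, which include 1.5-fold and 3-fold. The count of 14 that were 2-fold higher became 1 of 133 with a pseudocount of 5, where the share over all measured rows was 0.803%. It became 4 at 3-fold, beside 1% of all measured rows. It became 6 with a mean of at least 5 FPKM (49 receptors), beside 1.42% of all rows at that level. With at least 1 FPKM in both libraries it became 9 (123 receptors), beside 1.24% of all such rows. It became 9 without loci shared with any other row, short RNAs counted (91 receptors). It became 6 for NB-ARC descriptions alone (90) and 8 for the other descriptions alone (43). Without the chromosome 11 cluster, an alternative chosen after seeing the data, 8 of 119 were left. The share over all measured rows stayed at 2.08% for these subsets. Under the other settings the count lay between 10 and 19, and the share over all rows between 1.4% and 4.9%. Scaling both libraries to the same total FPKM, short RNAs included, moved the median difference of all measured rows to -0.19 on the log2 scale. That of the receptors moved to 0.0187, with 54.9% of receptors and 21.1% of all rows higher. With the short RNAs left out of that total, the medians were 0.0242 over all measured rows and 0.2278 over the receptors. The shares higher were then 54.5% of all measured rows and 69.9% of the receptors. Without a filter on low values the receptors' median was 0.0045, with 50.3% higher. When only rows within 100 kb were joined, the chromosome 11 cluster split, and the piece with OS11G0226933 held 3 of the 2-fold higher receptors in place of 6. No paired analysis was possible because each group has 1 library, and for the same reason no library could be left out. The low levels limit what can be read from single receptors: 30 of the 133 had a mean under 2 FPKM.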
